A study of Homo sapiens with 9 samples.

Results

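The 10 genes described here encode the enzymes that build inosine monophosphate from simple precursors (PPAT, GART, PAICS, ADSL and ATIC), turn it into guanine nucleotides (IMPDH1, IMPDH2 and GMPS), recover the free bases hypoxanthine and guanine (HPRT1) or break guanine down (GDA). They were taken from the count table by gene symbol and are 10 of its 56307 entries with an identifier. All 10 passed the filter on low counts, which kept 24182 genes. The genes were chosen by symbol as a pathway around IMPDH1, with earlier results of these libraries known; which measured values entered that choice is not recorded, and the level of IMPDH1 in the treatment groups is taken to be among them. IMPDH1 is therefore described without a test between groups. The adjusted p-values of the other 9 genes run over all 24182 genes and do not correct for the choice of the set.

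RNA was sequenced from HNES1, a wild-type human naive pluripotent stem cell line derived from an embryo's inner cell mass, on day 5 of its passage from the naive to a primed-like state. Each of the 3 groups has 3 libraries. The DMSO group received vehicle. The PROTAC group received UNC6852 at 2.5 µM, a degrader that brings EED to the VHL ubiquitin ligase, and the UNC group received UNC1999 at 1 µM, an inhibitor of the methyltransferases EZH2 and EZH1. EED and EZH2 are subunits of PRC2, the complex that methylates histone H3 at lysine 27. In all groups vehicle or compound was present from 24 h before the naive medium (PXGL) was withdrawn, and it was renewed daily with the N2B27 medium plus XAV939 that followed. All libraries come from 1 line, so they cannot speak for other lines or for the embryo. Before the experiment the cells were kept on mouse feeder cells. The series describes 3 independent runs of the experiment, and the titles number the libraries 1 to 3.

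As background, cells make purines on a chain of reactions that assembles the ring on ribose phosphate. PPAT carries out the committed step, and several later enzymes carry more than 1 activity on a single polypeptide, as GART, PAICS and ATIC do. The chain ends at inosine monophosphate, where it forks: IMPDH and then GMPS lead to GMP, while ADSS and then ADSL lead to AMP. IMPDH sets the pace of guanine nucleotide production and exists as a pair of isoforms. IMPDH2 is the form that predominates in dividing cells and IMPDH1 is better known from retina and resting cells. Pluripotent stem cells divide fast. Beside the new synthesis stands the salvage arm, in which HPRT1 returns bases to the nucleotide pool.

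Library totals ran from 31648689 to 101073148 counts, and mitochondrial genes took 3.21 to 5.12% of them (4.14 to 5.12% in DMSO, 3.21 to 3.68% in PROTAC, 3.33 to 4.67% in UNC). All 13 general pluripotency markers found in the table exceeded 1 CPM in at least 1 library, with a median level of 286 CPM, so the libraries carry the RNA of pluripotent cells that the labels name. CPM, the usual abbreviation for counts scaled to a fixed library total, are given after TMM scaling, which corrects those totals for differences in composition. Libraries with the same replicate number deviated together from their group means. Results are therefore given from 2 fits of the same counts with edgeR's quasi-likelihood test: by group alone, and with the replicate number as a block (the paired fit). A gene is called at a Benjamini-Hochberg adjusted p under 0.05. RNA was extracted from whole cultures, in which fewer cells expressing a gene and less of its RNA per cell cannot be told apart.

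IMPDH1 lies on the minus strand of chromosome 7 at 128392277 to 128409986 (GRCh38). Its promoter is printed because the set is named after IMPDH1, the member whose UNC libraries lay below all others. The UNC libraries of GMPS lay above all others. The 250 bases before the RefSeq start (GRCh38.p14, chr7:128409983-128410232, minus strand) hold 4 GC boxes, shown in capitals; the GC box was searched as GGGCGG or CCGCCC, which are each other's reverse complement, so both strands are covered.
IMPDH1: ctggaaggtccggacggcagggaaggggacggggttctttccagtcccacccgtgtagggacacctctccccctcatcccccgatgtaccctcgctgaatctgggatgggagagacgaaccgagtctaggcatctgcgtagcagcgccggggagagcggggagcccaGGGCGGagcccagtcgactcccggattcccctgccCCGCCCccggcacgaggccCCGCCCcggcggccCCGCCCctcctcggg
The stretch is 71.6% G and C and holds 23 CpG sites, against a median of 58% and 11 CpG sites over all promoters of the table. GC boxes were found in 42.5% of the 34943 windows of this length, and in at least 1 start window of each of the 8 members listed in the table, so they do not set IMPDH1 apart from the other members. IMPDH2 and ADSL are not among those 8.

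IMPDH1 was lower in UNC than in DMSO by 38.3% and stood in PROTAC at or slightly above the DMSO level. The DMSO libraries 1, 2 and 3 had 19.2, 20 and 21.9 CPM of IMPDH1, the PROTAC libraries 21.8, 21.2 and 24.1 CPM, and the UNC libraries 11.7, 13.6 and 12.4 CPM. Each UNC library lay below each of the other 6, while PROTAC and DMSO overlapped. Across all tested genes, 9.07% had every UNC library below every DMSO library, and 5.15% had every PROTAC library above every UNC library. The means were 20.4 ± 1.37 CPM for DMSO, 22.4 ± 1.51 CPM for PROTAC and 12.6 ± 0.939 CPM for UNC (SD, n = 3 each). These levels rest on 533 to 2065 counts of IMPDH1 per library.

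On the log2 scale IMPDH1 differed by -0.70 (SE 0.0953) between UNC and DMSO, by 0.13 (SE 0.0942) between PROTAC and DMSO, and by 0.83 (SE 0.0955) between PROTAC and UNC. Within libraries of the same number the UNC minus DMSO differences were -0.71, -0.56 and -0.82, and the PROTAC minus DMSO differences were 0.19, 0.08 and 0.14. Each replicate number thus had the same order, UNC below DMSO and DMSO below PROTAC. Leaving out any library or number kept the UNC minus DMSO difference of IMPDH1 between -0.76 and -0.63.

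In the paired fit some marker lists had more genes lower than higher in UNC, and others did not. Of 12 tested trophoblast markers, 8 were lower and none higher in UNC than in DMSO in the paired fit, with sums of 39.2 to 75.7 CPM in DMSO, 35.1 to 71.5 in PROTAC and 26.3 to 49.6 in UNC. ELF5, a defining trophoblast factor, was at 0 in 5 of the 9 libraries. Of 16 primed-state markers 7 were lower and 1 higher, with sums of 3680 to 4070 CPM in DMSO, 3590 to 4440 in PROTAC and 3640 to 4210 in UNC. Of 7 tested fibroblast markers 4 were lower and 1 higher, with sums of 455 to 498, 450 to 489 and 385 to 446 CPM, and LUM and FAP at 0 in all 9 libraries. The higher marker of the primed-state and fibroblast lists was THY1, which is in both. Of 9 tested amnion markers 3 were lower and 2 higher, and of 9 mesoderm and endoderm markers 3 and 1. Of 9 neural markers 2 were lower and 2 higher, and of 16 naive markers 2 and 4. Of 13 general pluripotency markers 0 were lower and 3 higher. Over all tested genes the paired fit called 6.46% lower and 7.05% higher in UNC. By group alone 1 trophoblast, 2 primed-state and 1 fibroblast marker were called lower. Each of the other lists had 0 to 2 lower and 0 to 2 higher in that fit. The part of these markers in the level of IMPDH1 was not tested.

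**Figure D1:**
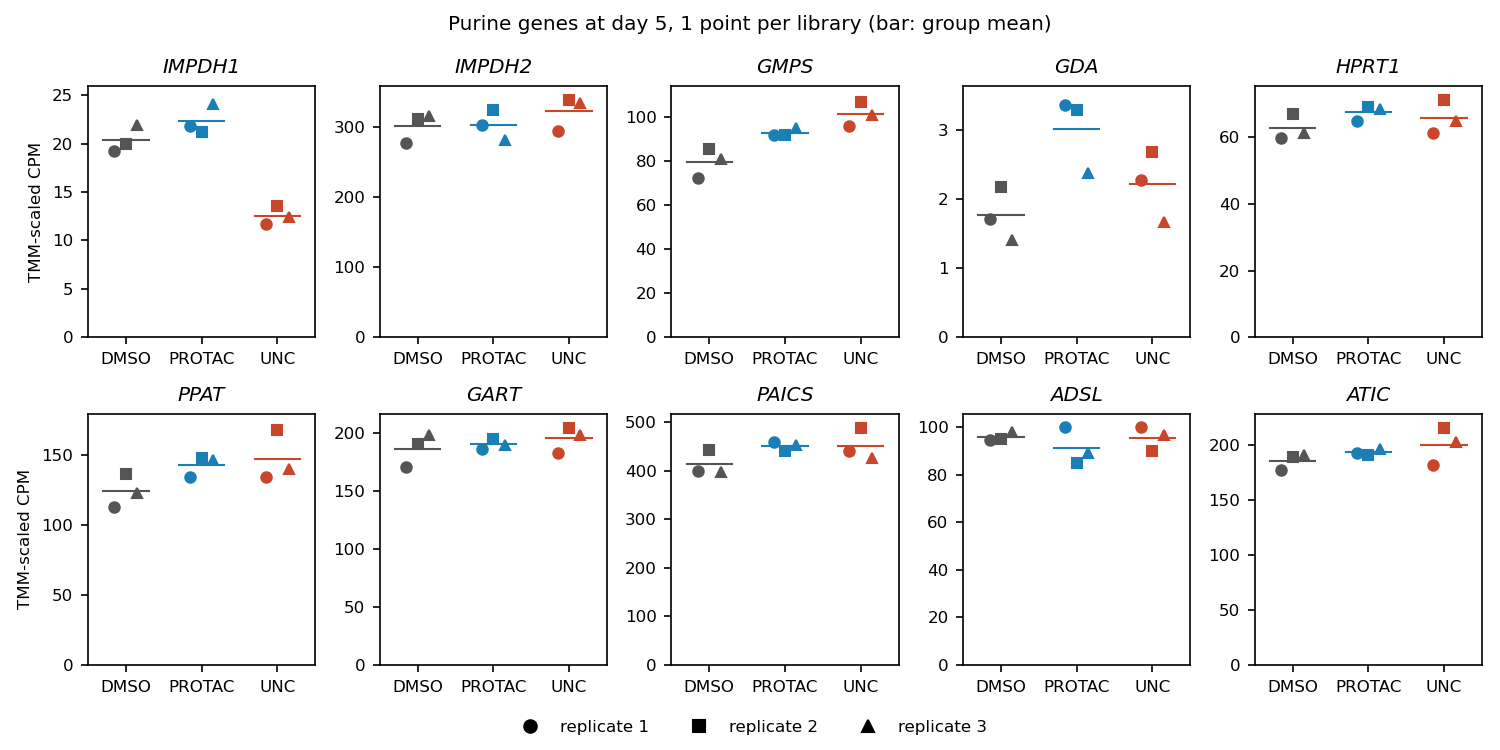
TMM-scaled CPM (vertical axes, each from 0) of the 10 purine genes in each library, by group (horizontal axes); points are libraries with their shape giving the replicate number, and bars are group means. IMPDH1 shows 3 UNC points between 11.7 and 13.6 CPM under 6 points from 19.2 to 24.1 CPM, while the UNC and DMSO points of IMPDH2, HPRT1, GART, PAICS, ADSL and ATIC overlap.

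IMPDH2, the isoform that predominates in dividing cells, sits on the minus strand of chromosome 3 at 49024325 to 49029447. Its CPM were 277, 312 and 317 in DMSO, 303, 325 and 282 in PROTAC, and 295, 339 and 335 in UNC. The 3 groups overlapped throughout. Neither compound gave a called difference of IMPDH2: the log2 differences were 0.10 (SE 0.0826, adjusted p = 0.717) for UNC and 0.01 (SE 0.0826, adjusted p = 0.999) for PROTAC against DMSO in edgeR's fit by group alone. An entry on the same strand without a symbol overlaps IMPDH2 over 5103 bases and received 240710 counts over all libraries against 189124 for IMPDH2. The counting rule is not given, so how reads were assigned between these overlapping entries is unknown. The only overlap of IMPDH1 is 65 bases with an entry of 10 counts on the other strand.

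Expressed per kilobase of exon, IMPDH1 supplied a small share of the IMPDH transcripts, and that share was lowest in UNC. IMPDH1 made up 4.98, 4.64 and 4.96% of the summed IMPDH1 and IMPDH2 level in the DMSO libraries, 5.18, 4.71 and 6.07% in PROTAC, and 2.92, 2.95 and 2.72% in UNC. The mean share was 4.86 ± 0.189% for DMSO, 5.32 ± 0.691% for PROTAC and 2.87 ± 0.124% for UNC (SD, n = 3). UNC did not overlap the other groups, and PROTAC overlapped DMSO. The share uses the level of IMPDH1 itself, so it too is a description. PROTAC 3, which gave the highest share, had the highest level of IMPDH1 and one of the lowest levels of IMPDH2.

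**Figure D2:**
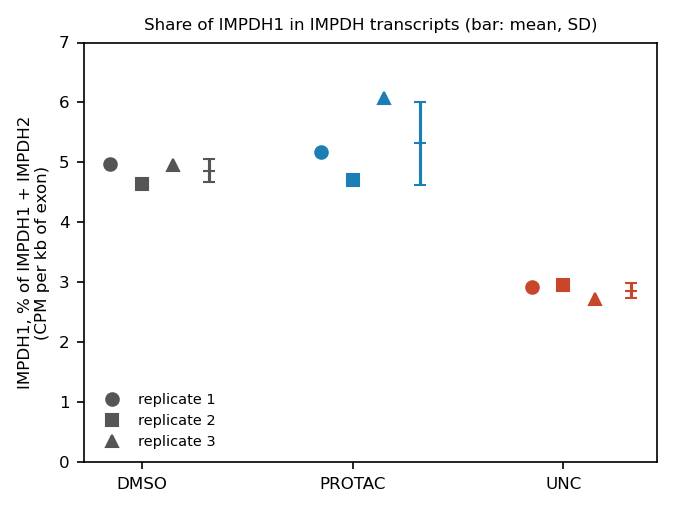
Share of IMPDH1 in the summed IMPDH1 and IMPDH2 level (vertical axis, % of CPM per kilobase of exon) in each library of the 3 groups (horizontal axis), with group mean and SD at the right of each group. The UNC libraries lie between 2.72 and 2.95%, all below the DMSO libraries at 4.64 to 4.98% and the PROTAC libraries at 4.71 to 6.07%.

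GMPS, which aminates XMP, the product of IMPDH, to GMP, was higher with both compounds. It lies on the plus strand of chromosome 3 at 155870650 to 155944020. GMPS had 72.5, 85.6 and 81.1 CPM in DMSO, 92.1, 91.7 and 95.1 CPM in PROTAC, and 95.8, 107 and 101 CPM in UNC. The groups did not overlap: every DMSO library lay below every PROTAC library, and every PROTAC library below every UNC library. Across all tested genes, the UNC libraries lay wholly above the DMSO libraries for 8.34% and the PROTAC libraries for 6.07%, and the PROTAC libraries lay wholly below the UNC libraries for 3.93%.

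In the paired fit GMPS rose by 0.34 on the log2 scale in UNC (SE 0.053, edgeR adjusted p = 1.27e-05) and by 0.23 in PROTAC (SE 0.0532, edgeR adjusted p = 0.0121), higher in each of the 3 pairs for both compounds. By group alone the same differences missed the threshold, with edgeR adjusted p = 0.0579 for UNC and 0.938 for PROTAC. The difference between the compounds, -0.12 (SE 0.0745), was called neither by group alone (edgeR adjusted p = 1) nor with the block (0.31). In the paired fit the UNC difference of GMPS was called in all 12 fits that left out a library or a number. The PROTAC difference was called in 5 of 12, without DMSO 2, PROTAC 2 or any 1 UNC library. The UNC libraries are not part of that comparison. Without DMSO 1, DMSO 3, PROTAC 1, PROTAC 3, or number 1, 2 or 3 the edgeR adjusted p of the PROTAC difference was 0.0588 to 0.138.

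GMPS and IMPDH1 therefore stood apart in the UNC libraries, with GMPS higher and IMPDH1, the minor isoform of the enzyme before XMP, lower. IMPDH2, the more abundant isoform, had no called difference, at 109 CPM per kilobase of exon in DMSO and 116 in UNC. Over the 9 libraries GMPS had the lowest correlation with IMPDH1 of the other members, a Pearson r of -0.51 in log2 CPM. The highest values among the members were 0.16 for GDA, 0.08 for HPRT1 and -0.13 for GART. Over all 11714 genes with a symbol and at least 5 CPM on average, CAPN2 (r = 0.97) and SEMA3G (0.95) were among the 3 that followed IMPDH1 most closely. CAPN2, a calpain protease subunit on chromosome 1, averaged 20.5 CPM with DMSO, 21.3 CPM with UNC6852 and 13.0 CPM with UNC1999. These correlations describe 9 libraries that share 3 treatments and 3 replicate numbers.

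PPAT and PAICS, the committing enzyme of the chain and the enzyme of its carboxylation and SAICAR steps, are neighbours on chromosome 4 that are read away from each other. PPAT lies on the minus strand at 56393362 to 56435615 and PAICS on the plus strand at 56435741 to 56464578. The bases between their RefSeq starts are printed because both genes start from them (GRCh38.p14, chr4:56435616-56435751, plus strand, 136 bases, GC boxes in capitals).
PPAT-PAICS: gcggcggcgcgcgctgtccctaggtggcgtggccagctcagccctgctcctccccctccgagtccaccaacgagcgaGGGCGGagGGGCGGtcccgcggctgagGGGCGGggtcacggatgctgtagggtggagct
This stretch is 75% G and C, with 15 CpG sites and 3 GC boxes. An E-box, CACGTG, the motif that MYC and related factors can bind, begins 40 bases after the PAICS start and lies within the 250 bases before the PPAT start (GRCh38.p14, chr4:56435780-56435801, plus strand, motif in capitals).
PAICS E-box: ctgtatttgctgCACGTGgaaa
CACGTG reads the same on both strands. It was found in 6.32% of the 34943 upstream windows and, of the 8 members listed, in those of PPAT and ATIC. A match in the sequence is not a measured binding site.

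PPAT rose with both compounds in the paired fit. Its levels were 113, 136 and 123 CPM in DMSO, 134, 148 and 146 CPM in PROTAC, and 134, 168 and 140 CPM in UNC. The ranges of the groups overlapped, with DMSO 2 above the lowest library of each compound, and in every group library 2 was the highest. Within numbers, UNC exceeded DMSO by 0.24, 0.30 and 0.19 and PROTAC exceeded DMSO by 0.24, 0.12 and 0.24 on the log2 scale.

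The paired log2 difference of PPAT was 0.24 in UNC (SE 0.0517, edgeR adjusted p = 0.000932) and 0.20 in PROTAC (SE 0.0518, edgeR adjusted p = 0.0231). By group alone the edgeR adjusted p was 0.29 for UNC and 0.991 for PROTAC. The UNC call was lost without UNC 2 (edgeR adjusted p = 0.0524) and without number 2 (0.0546). The PROTAC call held in 4 of 12 fits, without PROTAC 2 or any 1 UNC library, which is not part of that comparison. Without DMSO 1, DMSO 2, DMSO 3, PROTAC 1, PROTAC 3, or number 1, 2 or 3 its edgeR adjusted p was 0.0735 to 0.258. PROTAC and UNC differed in PPAT by -0.05 (SE 0.0943), with an edgeR adjusted p of 1.

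PAICS, on the other side of the shared start region, was the most abundant member by CPM. It had 399, 443 and 398 CPM in DMSO, 459, 441 and 452 CPM in PROTAC, and 440, 488 and 426 CPM in UNC. Its groups overlapped, and its log2 differences from DMSO were 0.13 in UNC (SE 0.0741) and 0.12 in PROTAC. Neither passed in the paired fit, where edgeR's adjusted p was 0.112 and 0.212. Per kilobase of exon PPAT made up 29.3 ± 1.01% of the summed PPAT and PAICS level for DMSO, 30.4 ± 1.48% for PROTAC and 31.0 ± 1.36% for UNC (SD, n = 3). By library the PPAT share was 28.2, 29.8 and 29.9% in DMSO, 28.8, 31.7 and 30.8% in PROTAC, and 29.6, 32.3 and 31.2% in UNC. The groups overlapped, while within each of the 3 numbers the share was higher with either compound than with DMSO. The share was not tested.

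GART, ADSL and ATIC, which act along the same chain, gave no called difference between groups by group alone or with the block. GART, the enzyme with 3 activities, lies on the minus strand of chromosome 21 at 33503931 to 33543491, and had 171, 191 and 199 CPM in DMSO, 187, 195 and 190 CPM in PROTAC, and 183, 205 and 199 CPM in UNC. Its log2 difference from DMSO was 0.06 in UNC and 0.03 in PROTAC, smaller than the SE of 0.0741 in UNC. GART overlaps SON by 454 bases on the other strand, and SON had 242687 counts over all libraries. Without a stated strand setting, reads from that overlap cannot be assigned.

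ADSL, which acts both in the chain and in the branch to AMP, lies on the plus strand of chromosome 22 at 40346461 to 40390463. It had 94.7, 95.0 and 98.0 CPM in DMSO, 100, 85.2 and 89.1 CPM in PROTAC, and 100, 90.2 and 97.0 CPM in UNC. The 3 DMSO libraries lay inside the range of the UNC libraries, and the log2 differences of ADSL from DMSO were -0.001 in UNC and -0.07 in PROTAC. Because SGSM3 and an entry without a symbol overlap it on the same strand, with 41213 and 77778 counts against 58380 for ADSL, its counts are uncertain.

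ATIC, which closes the ring, lies on the plus strand of chromosome 2 at 215311956 to 215349773. ATIC had 178, 189 and 191 CPM in DMSO, 193, 191 and 197 CPM in PROTAC, and 182, 216 and 203 CPM in UNC. The PROTAC libraries lay just above the DMSO libraries, with the nearest of each at 191 CPM after rounding, and UNC overlapped both. The log2 differences of ATIC from DMSO were 0.10 in UNC (edgeR adjusted p = 0.631) and 0.06 in PROTAC (edgeR adjusted p = 0.993).

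HPRT1, which joins hypoxanthine and guanine to ribose phosphate and is often used as a reference gene, had no called difference. It lies on the plus strand of chromosome X at 134460165 to 134520513. HPRT1 had 59.9, 67.0 and 61.4 CPM in DMSO, 64.8, 69.3 and 68.5 CPM in PROTAC, and 61.3, 71.3 and 65.0 CPM in UNC, with overlapping ranges. The log2 differences from DMSO were 0.07 (SE 0.0761, edgeR adjusted p = 0.8) in UNC and 0.10 (SE 0.0762, edgeR adjusted p = 0.993) in PROTAC.

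GDA, the guanine deaminase that takes guanine out of the salvage cycle, was the least abundant member and had the largest difference of any member in PROTAC. It lies on the plus strand of chromosome 9 at 72114595 to 72257193. GDA had 1.71, 2.17 and 1.41 CPM in DMSO, 3.36, 3.29 and 2.37 CPM in PROTAC, and 2.27, 2.68 and 1.67 CPM in UNC, on 60 to 318 counts per library. All PROTAC libraries lay above all DMSO libraries, and the UNC libraries overlapped both groups. In every group library 3 was the lowest.

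In PROTAC the level of GDA was 1.7 times that in DMSO, and in the paired fit it rose by 0.77 on the log2 scale (SE 0.155, edgeR adjusted p = 0.00301). The 3 pairs differed by 0.96, 0.59 and 0.73. By group alone the same difference had an SE of 0.227 and an edgeR adjusted p of 0.938. The paired call for GDA was lost without number 2 in all groups, at 0.87 and an edgeR adjusted p of 0.0579, and was kept in the other 11 of 12 such fits. In UNC the paired log2 difference was 0.31 (edgeR adjusted p = 0.214), and PROTAC exceeded UNC by 0.46 in the paired fit (SE 0.151, edgeR adjusted p = 0.1), so a difference in GDA between the compounds was not shown.

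Read over the whole set, most members had small positive differences from DMSO with the 2 compounds. Against DMSO, 8 of the 10 members were higher in UNC with a median log2 difference of 0.10, and 9 of 10 in PROTAC with a median of 0.11. Over all tested genes 48.5% were higher in each comparison, with a median of -0.01 in both. Without regard to sign, the median log2 difference of the members was 0.12 in UNC and 0.11 in PROTAC. For all tested genes it was 0.15 and 0.12, so the members' differences were not larger than those of other genes. The comparisons share the DMSO libraries, so the 2 counts are not independent, and members of 1 pathway are not replicates. IMPDH1 in UNC and ADSL in both were the members on the negative side, ADSL in UNC only by -0.001.

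By group alone, edgeR called 0 of the 9 members other than IMPDH1 in each of the 3 comparisons. Across all genes it called 0.72% in UNC against DMSO, 0% in PROTAC against DMSO and 0.00827% in PROTAC against UNC. At an unadjusted p under 0.05, GMPS and PPAT stood in UNC against DMSO, GMPS and GDA in PROTAC against DMSO, and none of the 9 in PROTAC against UNC. Of all 24182 genes, 3000, 1200 and 1136 stood under that p in the same order. DESeq2 called GMPS in UNC against DMSO, where it called 802 genes in all, and none of the 9 in the other comparisons. Among all genes it called 23 in PROTAC against DMSO and 127 in PROTAC against UNC.

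In the paired fit 2 of these 9 were called in UNC against DMSO, GMPS and PPAT, where 13.5% of all genes were called and 7.05% were called higher. In PROTAC against DMSO 3 of 9 were called, GMPS, GDA and PPAT, against 3.02% of all genes and 2.03% higher. In PROTAC against UNC 0 of 9 were called, against 2.9% of all genes, and UNC6852 and UNC1999 were used at different doses. With the block in the model the common coefficient of biological variation of all genes dropped from 13.2% to 6.09%.

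**Figure D3:**
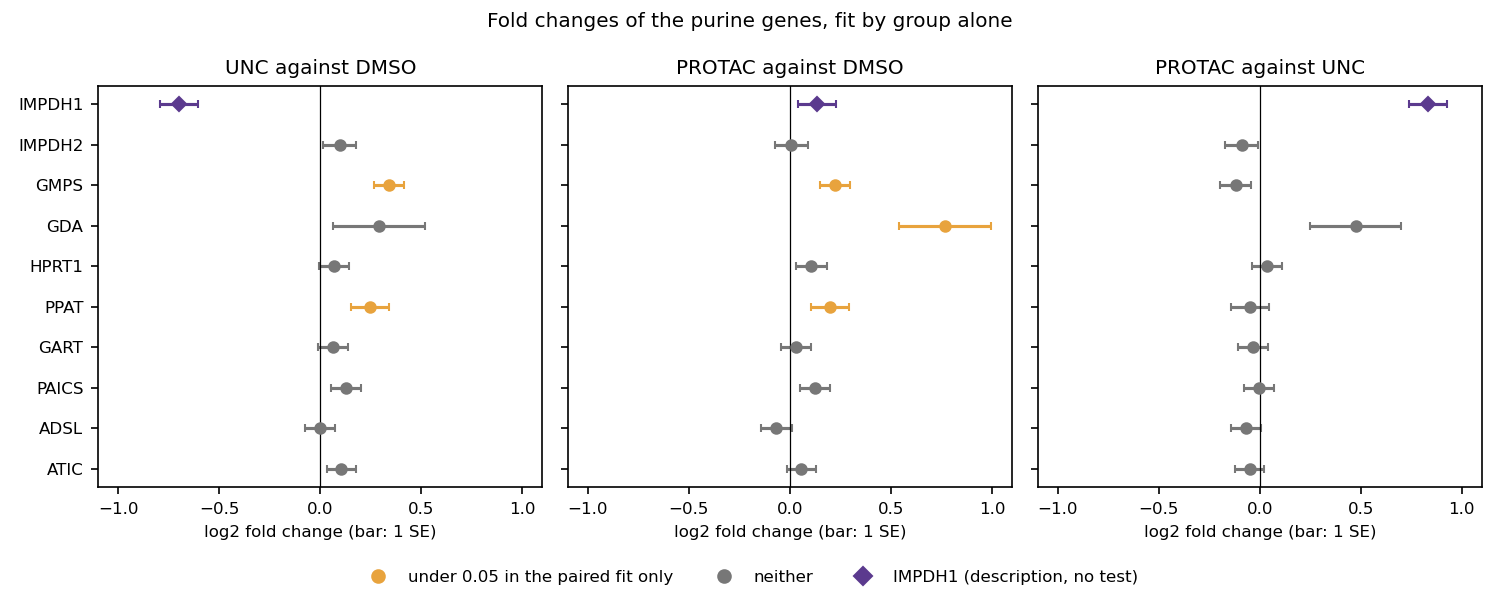
Log2 fold changes by group alone (horizontal axes, bars 1 SE) of the 10 members in the 3 comparisons; orange marks a gene under 0.05 in the paired fit only, grey marks neither fit, and purple diamonds mark IMPDH1, which was not tested. GMPS and PPAT are orange in both comparisons with DMSO and GDA, at 0.77 with the widest bars, in PROTAC against DMSO; the diamonds sit at -0.70, 0.13 and 0.83.

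The repeats of the experiment were also compared for all 10 members, IMPDH1 included, since this does not compare the treatments. Being called or not does not rank the members by their variation. An F test of the replicate number, in a model that also holds the group, called PPAT and GDA, 2 of 10, where 31.5% of all genes were called. PPAT averaged 127, 151 and 136 CPM in the libraries numbered 1, 2 and 3 (edgeR adjusted p = 0.00113), and GDA 2.45, 2.71 and 1.82 CPM (edgeR adjusted p = 0.0134). IMPDH1 averaged 17.6, 18.3 and 19.4 CPM. For the members not called the edgeR adjusted p was 0.0513 or higher. Without number 2 neither gene was called (2866 of all genes were), and GDA was also lost without UNC 2, UNC 3 or number 3. The count of members reached 5 without PROTAC 1 or PROTAC 3, where 7274 and 7872 of all genes were called.

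Per kilobase of exon the 10 transcripts spanned a wide range of levels. In DMSO the order was IMPDH2 at 109 CPM per kilobase, PAICS at 55.0, ATIC at 47.4, HPRT1 at 38.7, GART at 24.1, PPAT at 22.8, ADSL at 13.5, GMPS at 8.97, IMPDH1 at 5.56 and GDA at 0.224. Only GART and PPAT, neighbours in that order, overlapped over the libraries. The order was the same in PROTAC and UNC except that PPAT stood above GART, again with overlap. IMPDH1 kept its place in UNC, at 3.43 ± 0.256 CPM per kilobase (SD, n = 3), above GDA at 0.279 and below GMPS at 11.4. Lengths are the union of exons in GENCODE 29 and may differ from the transcripts these cells use.

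Among 99 other tested genes of nucleotide and folate metabolism, nucleoside transport and the MYC family with ATF4, the changes ran in both directions. In UNC against DMSO the paired fit called 14 higher and 10 lower, against 7.05% of all genes higher and 6.46% lower. The fit by group alone called 2 higher and 1 lower, against 0.72% of all genes, with a median log2 difference of 0.00. In PROTAC against DMSO the paired fit called 4 higher and 2 lower, against 3.02% of all genes. By group alone it was 0, against 0% of all genes. No other enzyme of the new synthesis of purines, of 7 tested, was called in UNC. In PROTAC PRPS2, which makes the activated ribose that PPAT uses, went from 47.2 to 54.8 CPM (paired log2 difference 0.21, edgeR adjusted p = 0.0331), a call that of 12 fits leaving out a library or number held only without DMSO 2 or UNC 3 and reached 0.386.

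Of 21 other tested genes of purine salvage and breakdown the paired fit called 3 higher in UNC (SAMHD1, ADK and NT5C3A) and 2 lower (PNP and GMPR). Over all genes it called 7.05% higher and 6.46% lower. The fit by group alone called only PNP of the 21. PNP, the phosphorylase that frees hypoxanthine and guanine from their nucleosides, had 273, 265 and 241 CPM in DMSO, 300, 262 and 238 in PROTAC, and 196, 203 and 179 in UNC, with no overlap of UNC with either group. PNP fell by 0.43 on the log2 scale in UNC (SE 0.0892, edgeR adjusted p = 0.0468 by group alone and 1.55e-07 with the block). The paired call held in all 12 fits that left out a library or number and the call by group alone in 2 of them, without PROTAC 1 and without UNC 1, with values up to 0.568 in the others. GMPR, which turns GMP back into inosine monophosphate, went from 5.34 CPM in DMSO to 3.43 CPM in UNC (paired log2 difference -0.65, edgeR adjusted p = 0.000184, called in all 12). SAMHD1, a hydrolase of deoxynucleotides, rose by 0.19 in the paired fit (edgeR adjusted p = 0.00588), a call lost without DMSO 2, UNC 2 or number 2 (up to 0.128). ADK, the adenosine kinase, rose by 0.28 (edgeR adjusted p = 0.0162), a call lost without DMSO 2, any 1 UNC library, or number 2 or 3 (up to 0.199). None of the 21 was called in PROTAC against DMSO. The trophoblast, primed and fibroblast marker sums given for IMPDH1 belong to the same libraries, and their part in PNP and GMPR was not tested.

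Of 24 folate and serine genes, which supply the carbon units for the ring, 5 were higher and 1 lower in UNC in the paired fit. Over all genes these shares were 7.05% and 6.46%. ALDH1L2, a mitochondrial folate dehydrogenase, had 34.9, 34.6 and 37.9 CPM in DMSO, 39.1, 37.1 and 43.4 in PROTAC, and 48.6, 46.5 and 56.5 in UNC, where all 3 libraries lay above all others. It rose by 0.50 on the log2 scale (SE 0.0905, edgeR adjusted p = 0.03 by group alone and 7.09e-08 paired). Of 12 fits with a library or number left out, the paired call held in all and the call by group alone in 4, without PROTAC 1, PROTAC 2, UNC 1 or UNC 2, reaching 0.528 in the others. PSAT1 and PHGDH, both of serine synthesis, rose in UNC by 0.35 and 0.31 in the paired fit (edgeR adjusted p = 1.4e-05 and 3.71e-05, called in all 12). In PROTAC both rose by 0.25 and 0.24 (edgeR adjusted p = 0.00615 and 0.00504). The PROTAC call of PSAT1 was lost without DMSO 1, DMSO 3, PROTAC 1 or number 1 or 3 (up to 0.0941), and that of PHGDH without DMSO 2, DMSO 3 or number 2 or 3 (up to 0.148).

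Of 17 tested pyrimidine genes 3 were higher and 3 lower in UNC in the paired fit, against 7.05% and 6.46% of all genes. UCK2, the uridine and cytidine kinase, went from 43.5 CPM in DMSO to 53.3 in PROTAC and 58.8 in UNC. Its rise in UNC was 0.44 (SE 0.0701, edgeR adjusted p = 0.0171 by group alone and 3.07e-07 paired). The paired call held in all 12 fits with a library or number left out, and the call by group alone was lost without DMSO 1, DMSO 3, UNC 2, UNC 3 or number 2 or 3 (up to 0.568). Its rise in PROTAC was 0.30 in the paired fit (edgeR adjusted p = 0.00115, lost without number 2 at 0.0501). Of 18 genes for nucleotide kinases, ribonucleotide reductase and other nucleotide enzymes, 2 rose and 2 fell in UNC in the paired fit. Among them were NME4 (-0.32, edgeR adjusted p = 0.000258) and NUDT16, not a kinase (0.26, edgeR adjusted p = 0.0012). Both were lost without number 2 (0.0621 and 0.108). None of 7 tested nucleoside transporters was called in either comparison in the paired fit.

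MYC, a factor that can bind the E-box, had 48.4, 49.2 and 39.4 CPM in DMSO, 56.8, 48.7 and 39.4 in PROTAC, and 35.7, 40.7 and 26.9 in UNC. UNC overlapped the other groups, and within each number the UNC library was the lowest. MYC fell by 0.42 in UNC in the paired fit (edgeR adjusted p = 1.76e-05, called in all 12 fits with a library or number left out, against 0.303 by group alone). Of the 5 tested genes of the MYC family with ATF4, the paired fit called 1 higher and 2 lower in UNC. Over all genes it called 7.05% higher and 6.46% lower. MAX fell by 0.17 (edgeR adjusted p = 0.0468, called in 3 of 12 such fits). ATF4 rose by 0.16 (edgeR adjusted p = 0.0376, called in 5 of 12). MYCN, at 126 CPM in DMSO and 121 in UNC, was not called (paired log2 difference -0.06). Of 20 proliferation genes 4 were higher in UNC in the paired fit, against 7.05% of all genes. Among the 4 was CCND1 at 0.31 (edgeR adjusted p = 3.3e-05 paired and 0.0847 by group alone). By group alone edgeR called 0 of the 20, and their summed level was 3450 to 3680 CPM in DMSO, 3620 to 3680 in PROTAC and 3570 to 3810 in UNC. The part of growth rate in the levels of GMPS and PPAT was not tested.

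**Figure D4:**
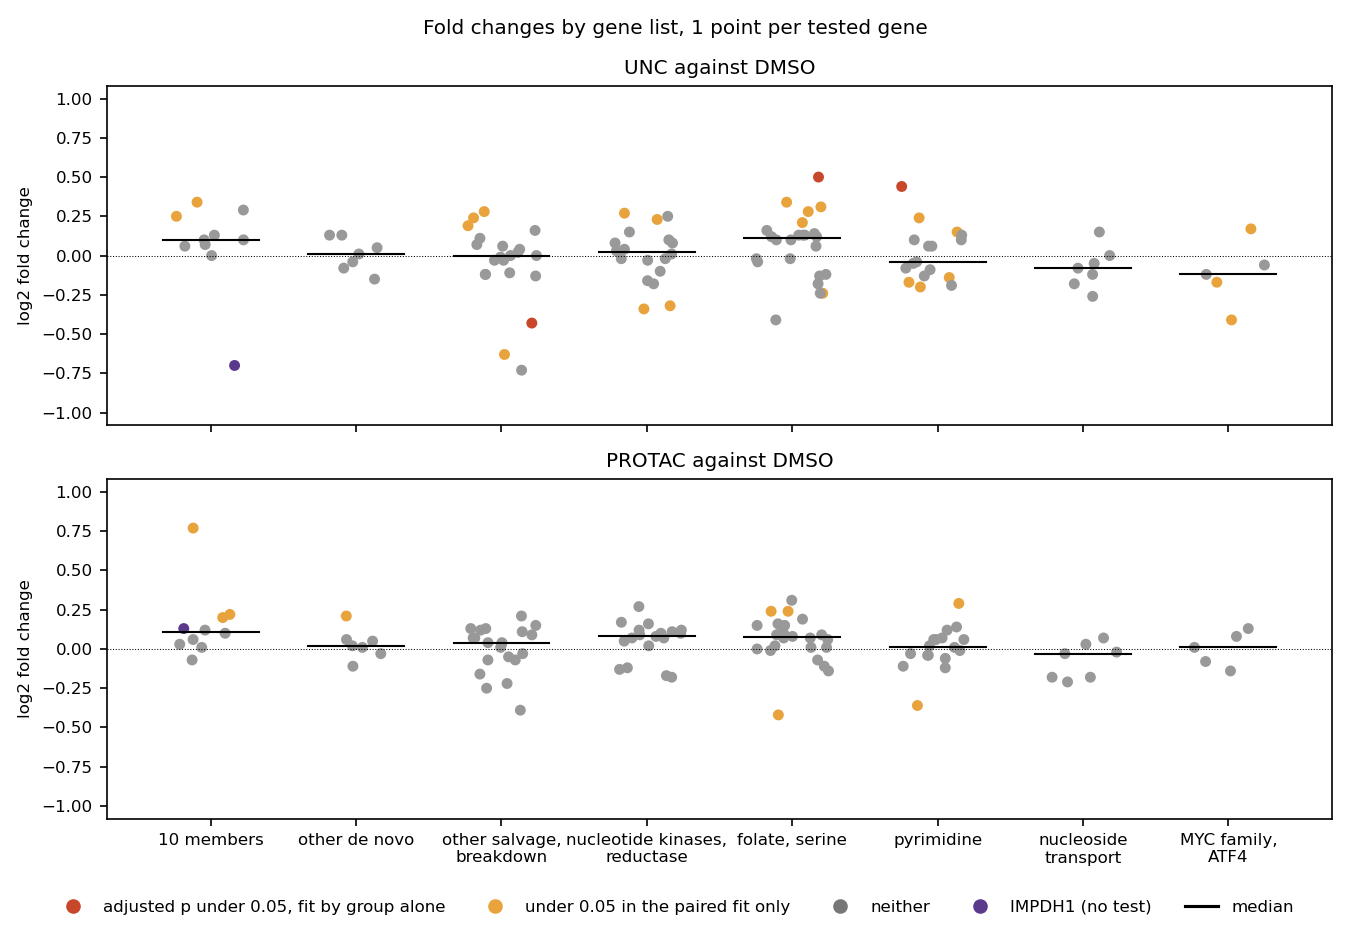
Log2 fold changes by group alone (vertical axes) of the 10 members and of the tested genes in 7 other lists (horizontal axis, points spread sideways), in UNC against DMSO (top) and PROTAC against DMSO (bottom); red marks a call by group alone, orange a call in the paired fit only, grey neither and purple IMPDH1, with list medians as black lines. In the top panel PNP is the red point at -0.43, ALDH1L2 the red point at 0.50 and UCK2 the red point at 0.44, and no point is red in the bottom panel.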

How the data were processed

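The authors deposited unnormalised read counts, 1 whole number per gene and library, in a single table with gene coordinates. Per the submitters' processing notes, Trim Galore 0.6.10, HISAT2 2.2.1 and the GRCh38 build were used. How reads were assigned to genes (tool, annotation release, strand) is not given in the sources used here. Protocols in the labels describe total RNA with ribosomal RNA depletion, while the molecule field reads polyA RNA. Of 56312 rows 5 without an identifier were dropped (at most 0.0103% of a library's counts). Groups and replicate numbers came from the sample titles.

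All 9 libraries entered edgeR 4.0.16 (R 4.3.3; TMM, default filter by group, robust quasi-likelihood fit, two-sided tests, Benjamini-Hochberg over 24182 genes), with 6 residual degrees of freedom by group alone and 4 with the replicate block. The same-number libraries correlated at 0.106 to 0.472 (9 pairs) in their deviations from group means, and different numbers at -0.324 to 0.0748 (18 pairs). Because deviations cancel within a group, positive correlations for the same number entail negative ones on average for different numbers. Each same-number correlation exceeded 0.1, so the paired value is given where it changes a call. Replicates of a group differed by more than counting error (chi-square per degree of freedom 10.7 to 37.4). Alternatives were RLE and library-size scaling, no filter, DESeq2 1.42.0, leave-outs and a threshold of 0.01.

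The text names all 10 members, up to 4 called genes per other list by smallest p, the 3 genes and 3 members most like IMPDH1, and overlapping neighbours. Of these, 1 gene like IMPDH1 is not reported here. Members and lists were chosen with earlier results of these data known. Sequences are from a RefSeq table (GRCh38.p14), which held 8 of the 10 members; exon lengths from GENCODE 29 matched 10 of 10 by identifier.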

Additional observations from a re-analysis of the deposited data

How the results depend on the processing

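Under RLE or library-size scaling, no filter and DESeq2, the direction of each member's difference by group alone was kept except for values near 0. ADSL in UNC against DMSO went to 0.00789 with RLE, 0.000127 with no filter and 0.00823 with DESeq2, IMPDH2 in PROTAC against DMSO to -0.0178 with library size, and PAICS in PROTAC against UNC to 0.00518 with library size and 1.79e-05 with the replicate block. In the paired fit (alternatives chosen after seeing the data) ADSL in UNC went to 0.00565 with RLE, IMPDH2 in PROTAC to -0.0159 with library size, and PAICS in PROTAC against UNC to -0.00632 with RLE.

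The counts that follow are of members under the threshold and include IMPDH1, for which they are a description only, since its level is taken to have entered the choice of the set. The number of all genes called stands in brackets after each count. In UNC against DMSO the count was 1 (174), 2 with no filter (832) and 2 with DESeq2 (802), both adding GMPS. With the replicate block it was 3 (3266). In PROTAC against DMSO it was 0 (0), and 3 with the block (730). In PROTAC against UNC it was 1 (2), and 0 at a threshold of 0.01 (0). For the replicate number it was 2 (7621), 1 at 0.01 (4650), 5 with RLE (7740) and 4 with DESeq2 (6788). The cause of these shifts was not tested. The block changed the calls of GMPS, PPAT and GDA given in the report and of no other member.

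Leaving out libraries or numbers gave 0 to 2 members in UNC against DMSO, 0 in PROTAC against DMSO and 0 to 1 in PROTAC against UNC. For the replicate number it gave 0 to 5, and in the paired fit of the 3 comparisons 2 to 3, 0 to 3 and 1. In UNC against DMSO the count was 0 without UNC 3, number 2 or number 3, where 27, 1 and 0 of all genes were called. It was 2 without UNC 1, where 260 were called. In PROTAC against UNC each count of 0 came from a fit that called 0 of all genes. The only member behind a count of 1 there was IMPDH1, for which these counts are a description and not a test. By group alone GMPS was called in UNC against DMSO without UNC 1 (edgeR adjusted p = 0.0389) and in no other such fit. Leave-out ranges that crossed 0 by group alone were -0.0438 to 0.0412 for ADSL in UNC; -0.051 to 0.0867 for IMPDH2 and -0.0322 to 0.0795 for GART in PROTAC. In PROTAC against UNC they were -0.0131 to 0.0972 for HPRT1, -0.113 to 0.0575 for PPAT, -0.0808 to 0.00225 for GART, -0.0526 to 0.0645 for PAICS and -0.114 to 0.012 for ATIC. In the paired fit they were -0.0616 to 0.0377 for ADSL in UNC; -0.0527 to 0.0911 for IMPDH2 and -0.0188 to 0.0768 for GART in PROTAC; -0.0997 to 0.022 for PPAT, -0.0497 to 0.0681 for PAICS and -0.111 to 0.0147 for ATIC in PROTAC against UNC.

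GDA rests on as few as 60 counts in a library, which limits its precision. Each group has 3 libraries from 1 line. With strand and overlap rules unknown, the counts of IMPDH2, ADSL and GART are uncertain. Whether processed copies elsewhere took reads of members was not tested.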
